A study of Mus musculus with 24 samples.

Results

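Schwann cells and other glia of peripheral nerves were followed here through 8 genes, Sox10, Foxd3, Erbb3, Ngfr, Cdh19, Fabp7, S100b and Mbp, which were chosen by name among the 54752 genes of a bulk RNA-Seq count table. The study asked how the transcription regulator Prdm6 acts in the ductus arteriosus (DA), the fetal vessel between the pulmonary artery and the aorta that closes after birth, and in the ascending aorta. Both vessels were dissected from mouse embryos close to birth on a C57/Black6 background. The Prdm6-deficient embryos were Wnt1Cre;PRDM6f/f, with Cre recombinase under the Wnt1 promoter (Wnt1Cre2 in the paper) and both Prdm6 alleles floxed. Their littermate controls were PRDM6wt/f, with 2 exceptions: control DA replicate 3 was PRDM6wt/wt, and a single Wnt1Cre;PRDM6wt/wt embryo, which carried Cre, gave both replicate 2 of the control DA and replicate 3 of the control aorta. There were 7 control DA, 5 Prdm6-deficient DA, 6 control aorta and 5 Prdm6-deficient aorta libraries, and Prdm6-deficient DA replicates 1 and 2 were each made from 2 embryos. A further Prdm6-deficient DA sample was not analysed here. In all, 6 control embryos gave both vessels. Prdm6-deficient DA replicates 5 and 7 shared their embryos with Prdm6-deficient aorta replicates 3 and 5. The 2 embryos of Prdm6-deficient DA replicate 2 also gave aorta replicates 1 and 2. Total counts per library ran from 15163974 to 22610547.

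Schwann cells arise from the neural crest by way of migrating Schwann cell precursors, which travel along growing nerves and also give rise to melanocytes and to some autonomic neurons. Precursors become immature Schwann cells, which then either wrap large axons in myelin or ensheath bundles of small ones. The Wnt1 promoter is active in the premigratory neural crest, so peripheral glia, melanocytes and autonomic neurons belong to the lineages in which this Cre recombines, together with the smooth muscle of the DA and ascending aorta.

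Sox10 is a transcription factor that the whole peripheral glial lineage needs, and it is also used by melanocytes. Foxd3 is a repressor of the early neural crest and of glial precursors. Erbb3 is the receptor through which Schwann cells receive neuregulin 1 from axons, and Ngfr is the low-affinity p75 neurotrophin receptor, found on immature and nonmyelinating Schwann cells and on autonomic neurons. Cdh19 is a cadherin of Schwann cell precursors, Fabp7 is a fatty acid binding protein of early glia, S100b is a calcium-binding protein of maturing glia that cartilage and fat cells also make, and Mbp is myelin basic protein. Mbp counts also take in the longer golli transcripts of the locus, which are made outside glia. In bulk tissue a lower count can come from fewer cells of a type or from less RNA per cell, and the 2 cannot be told apart.

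The targeted gene followed the labels. On the CPM scale, counts divided by the TMM-scaled library size, Prdm6 stood at 78.1, 70.8, 77.7, 78.5 and 58.6 in Prdm6-deficient DA replicates 1, 2, 5, 6 and 7, against 84.9 to 128 in the control DA (median 104). In the aorta it stood at 69.6, 70.05, 68.5, 81.2 and 61.9 CPM in the Prdm6-deficient libraries and at 95.6 to 135 in the controls (median 109). Every Prdm6-deficient library thus lay below every control library of its vessel, by 0.57 ± 0.11 (SE) on the log2 scale in the DA (edgeR adjusted p = 0.000553) and 0.69 ± 0.11 in the aorta (edgeR adjusted p = 0.00017). Counts were per gene, so transcripts lacking the floxed part were not counted apart from intact ones.

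3 control DA libraries stood apart before any comparison. Replicate 7 held 59.5 CPM of Mbp, where the other 6 control DA libraries held 3.09 to 12.3. It was also the highest control DA library for Sox10, Foxd3, Erbb3, Ngfr, Cdh19 and Fabp7, but not for S100b, at 7.37 CPM within a control DA range of 4.73 to 13.3. Control DA replicate 3 was unlike the rest in another way: its Sox10 level of 13.1 CPM came with 0 counts of both Foxd3 and Fabp7 and with the highest level of the melanocyte enzyme gene Dct, 129 CPM. Control DA replicate 1 held 1378 CPM of 7 summed cardiomyocyte genes, where the other 6 held 39.8 to 219. Results that rest on control DA replicate 7 are given with and without it.

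**Figure D1:**
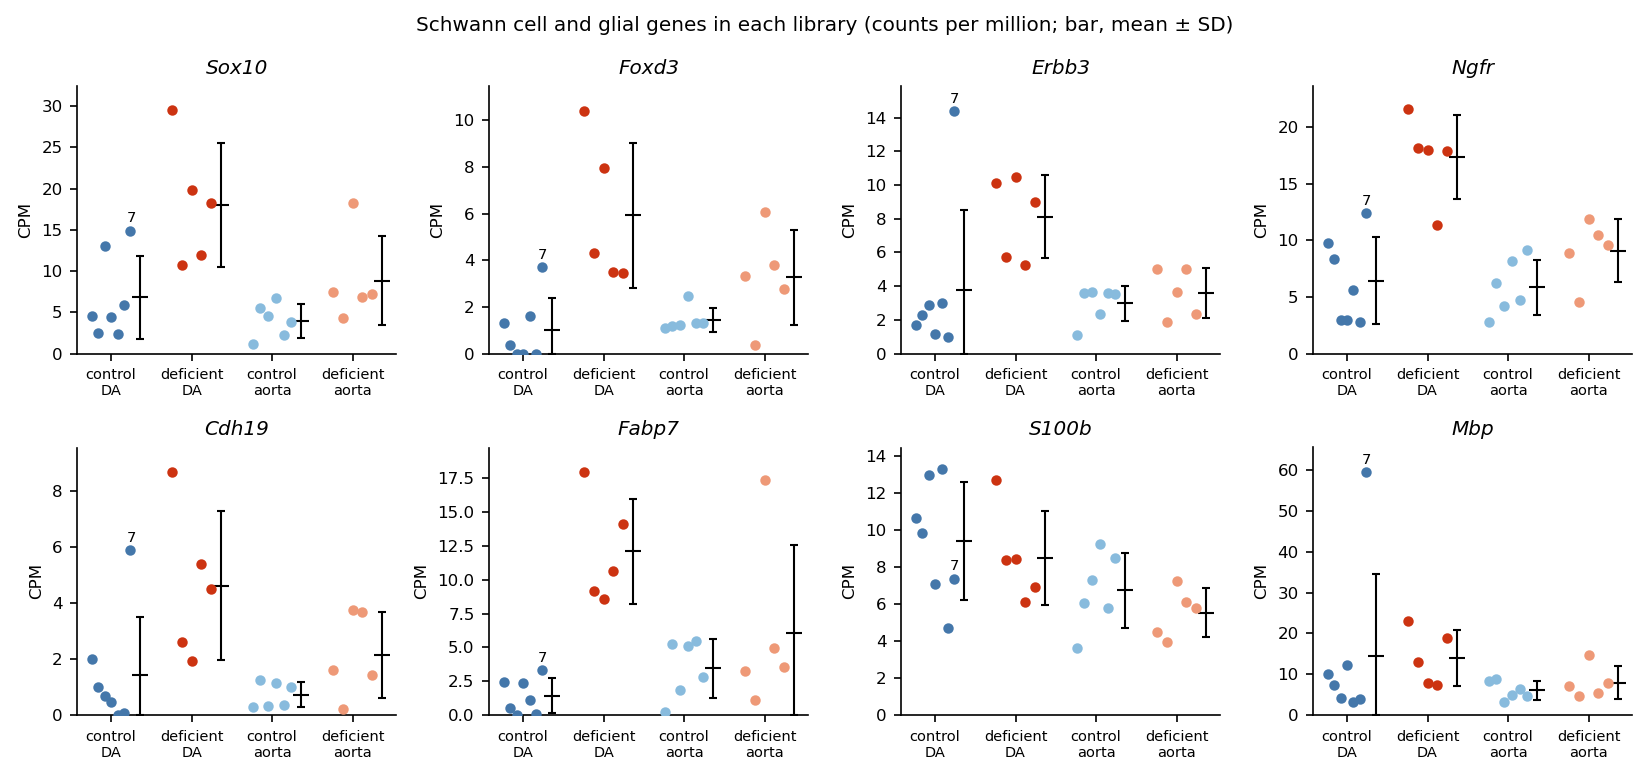
Level of each of the 8 genes (y axis, CPM) in every library of the 4 groups (x axis), with points for libraries, and the mean and SD as a bar whose lower arm stops at 0; control DA replicate 7 is numbered. Fabp7 shows no overlap between Prdm6-deficient and control DA, 8.61 to 18.0 against 0 to 3.32 CPM, whereas S100b and Mbp overlap in both vessels.

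In the Prdm6-deficient DA an early glial gene and the p75 receptor were higher, while the other 6 genes did not pass the test. A gene was called changed at an edgeR quasi-likelihood p below 0.01, adjusted by the Benjamini-Hochberg method over 16463 tested genes, with a log2 fold change beyond 0.5. By that rule 2 of the 8 genes, Fabp7 and Ngfr, were called higher in the Prdm6-deficient DA and 0 were called lower, where 2.61% of all tested genes were called higher and 5.43% in either direction. The median log2 fold change was 1.42 over the 8 genes and 0.01 over all tested genes. All 8 genes had passed the filter on low counts, and 6 of them had a positive estimate in this comparison.

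The 2 called genes have an entry in the RefSeq promoter table (GRCm38.p6), and the 200 bases that begin 250 bases before the RefSeq start of each are shown because these 2 passed the test in the DA. The RefSeq start is not the start of the GENCODE gene, whose coordinates follow. Capitals mark each CG, the dinucleotide that can be methylated. Fabp7 (ENSMUSG00000019874.11) lies on the plus strand at chr10:57784881-57788450, its printed stretch being chr10:57784673-57784872, and Ngfr (ENSMUSG00000000120.6) lies on the minus strand at chr11:95568818-95587735, its printed stretch being chr11:95587749-95587948.
Fabp7: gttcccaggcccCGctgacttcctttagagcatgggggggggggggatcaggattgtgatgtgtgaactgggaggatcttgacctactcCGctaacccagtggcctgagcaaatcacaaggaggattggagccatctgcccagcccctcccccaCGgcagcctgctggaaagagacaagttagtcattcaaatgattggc
Ngfr: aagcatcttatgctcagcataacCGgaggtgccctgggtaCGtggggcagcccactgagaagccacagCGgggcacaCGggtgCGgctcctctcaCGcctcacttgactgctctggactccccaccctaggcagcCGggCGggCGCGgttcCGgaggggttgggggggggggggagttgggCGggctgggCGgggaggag
The 300-base window around the Fabp7 start held 6 CG, close to the median of 7 over the 32851 windows of the table, and the Ngfr window held 23, above the upper quartile of 20. Windows were found for 4 of the 8 genes, the others being Foxd3 with 25 CG and S100b with 3. Searched on both strands, ACAAAG and ACAATG, core sequences that SOX proteins can bind, were in none of the 4 windows, while 28.6% of all windows held at least 1 of them. No match says only that these letters are not in these windows.

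Fabp7 had the widest separation of the 8 genes in the DA. It stood at 18.0, 9.20, 8.61, 10.6 and 14.1 CPM in Prdm6-deficient DA replicates 1, 2, 5, 6 and 7, against 0 to 3.32 CPM in the control DA with a median of 1.12. Fitted by edgeR, the difference was 3.09 ± 0.73 (SE) on the log2 scale, with an adjusted p of 0.00454. Even the lowest Prdm6-deficient library was above the highest control, control DA replicate 7, and this was the 1 gene of the 8 with no overlap in the DA, as held for 5.66% of all tested genes. The call was lost without Prdm6-deficient DA replicate 1 (adjusted p = 0.0141) or 7 (0.0104), without control DA replicate 2 (0.0101) or 5 (0.0105), without the Cre-carrying control embryo (0.0118) and with the run of animal numbers as a covariate (0.0109). Within the first run of animal numbers the log2 fold change was 5.41 (adjusted p = 0.0381) and within the second 2.62 (0.149), where few libraries remain in each group.

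Ngfr stood at 21.6, 18.2, 18.0, 11.3 and 17.9 CPM in Prdm6-deficient DA replicates 1, 2, 5, 6 and 7, and at 2.79 to 12.4 CPM in the control DA with a median of 5.59. On the log2 scale edgeR put the difference at 1.43 ± 0.35 (SE), with an adjusted p of 0.00554. In the DA 4 of the 5 Prdm6-deficient libraries lay above every control, and replicate 6 overlapped with control DA replicate 7 alone. The Ngfr call was lost without control DA replicate 3 (adjusted p = 0.0125), 4 (0.0113), 5 (0.0125) or 6 (0.0105) and without Prdm6-deficient DA replicate 1 (0.0186), 2 (0.0132), 5 (0.0127) or 7 (0.0123). It was also lost with the replicate number as a block (1.46, adjusted p = 0.0142) and with the 2 DA groups fitted alone (0.0196), and within the 2 runs of animal numbers the log2 fold changes were 1.57 (0.195) and 1.41 (0.273). Over all alternatives the adjusted p ran from 0.000682 to 0.273 for Ngfr and from 0.00183 to 0.149 for Fabp7, with each estimate positive. Without the 2 libraries made from 2 embryos neither gene was called, at adjusted p-values of 0.0256 for Fabp7 and 0.0535 for Ngfr, with log2 fold changes of 2.97 and 1.29.

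The transcription factors Sox10 and Foxd3 had positive estimates that did not pass. Sox10 (ENSMUSG00000033006.10, minus strand, chr15:79154908-79165240) stood at 29.5, 10.7, 19.9, 12.0 and 18.3 CPM in Prdm6-deficient DA replicates 1, 2, 5, 6 and 7 and at 2.39 to 14.9 CPM in the control DA with a median of 4.51 (log2 fold change 1.40 ± 0.44, edgeR adjusted p = 0.0362). The 2 controls that reached the Prdm6-deficient range were replicate 7, rich in Mbp, and replicate 3, rich in Dct. Foxd3 (ENSMUSG00000067261.4, plus strand, chr4:99656299-99658622) stood at 10.4, 4.32, 7.97, 3.51 and 3.44 CPM in the same Prdm6-deficient libraries, whereas control DA replicates 3, 4 and 6 had 0 counts and the control median was 0.354 CPM (log2 fold change 2.55 ± 0.83, edgeR adjusted p = 0.0416). Control DA replicate 7, at 3.71 CPM, was the 1 control that overlapped with the Prdm6-deficient values. Sox10 was called with the replicate number as a block (1.87, adjusted p = 0.00536), Foxd3 with DESeq2 (0.00777), and both with limma-voom.

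The neuregulin receptor Erbb3 (ENSMUSG00000018166.8, minus strand, chr10:128567523-128589652) stood at 10.1, 5.74, 10.5, 5.23 and 8.98 CPM in the Prdm6-deficient DA replicates 1, 2, 5, 6 and 7. In the control DA 6 of 7 libraries lay between 1.003 and 2.98 CPM, below all of these, and replicate 7 lay above them at 14.4. With that library the log2 fold change was 1.10 ± 0.50 (edgeR adjusted p = 0.173). Cdh19 (ENSMUSG00000047216.8, minus strand, chr1:110888326-110977584) was low in most controls, at 0 to 5.88 CPM with a median of 0.667 and with replicates 5 and 6 at 0 and 1 count, and stood at 8.66, 2.61, 1.92, 5.40 and 4.52 CPM in the Prdm6-deficient DA replicates 1, 2, 5, 6 and 7 (log2 fold change 1.67 ± 0.82, edgeR adjusted p = 0.213). Without control DA replicate 7, the highest control, the Cdh19 estimate was 2.70 (adjusted p = 0.0283), and it was not called. A floor of 3 counts came to between 0.133 and 0.198 per library on the CPM scale before TMM scaling, counting error alone considered.

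The markers of maturing and myelinating glia were not called and had estimates near 0. S100b (ENSMUSG00000033208.7, plus strand, chr10:76253853-76261159) stood at 12.7, 8.41, 8.43, 6.09 and 6.92 CPM in Prdm6-deficient DA replicates 1, 2, 5, 6 and 7 and at 4.73 to 13.3 CPM in the control DA with a median of 9.86 (log2 fold change -0.15 ± 0.27, edgeR adjusted p = 0.814). The whole Prdm6-deficient range lay inside the control range. Mbp (ENSMUSG00000041607.16) stood at 23.1, 13.1, 7.88, 7.36 and 18.8 CPM in the same Prdm6-deficient libraries and at 3.09 to 59.5 CPM in the control DA with a median of 7.33 (log2 fold change -0.03 ± 0.54, edgeR adjusted p = 0.981). Without control DA replicate 7 the control DA ran from 3.09 to 12.3 CPM of Mbp and the log2 fold change was 1.04 (edgeR adjusted p = 0.0837). S100b overlaps the annotated span of Dip2a on the other strand, with 0 exonic bases in common, and Dip2a stood at 54.6 to 86.8 CPM. RSEM was run with its default settings, which do not use the strand of a read.

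Leaving out control DA replicate 7 raised the number of the 8 genes called higher in the Prdm6-deficient DA from 2 to 4, where 2.40% of tested genes were then called higher. Fabp7 and Ngfr were called again, at log2 fold changes of 3.46 and 1.68, and Foxd3 and Erbb3 joined them, at 3.42 (edgeR adjusted p = 0.00745) and 2.02 (0.000657). Sox10 then missed the threshold narrowly, at 1.72 with an adjusted p of 0.0102, and S100b stayed near 0 at -0.20. The omission was an alternative planned for every library, but its place in this account was chosen after the values were seen.

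**Figure D2:**
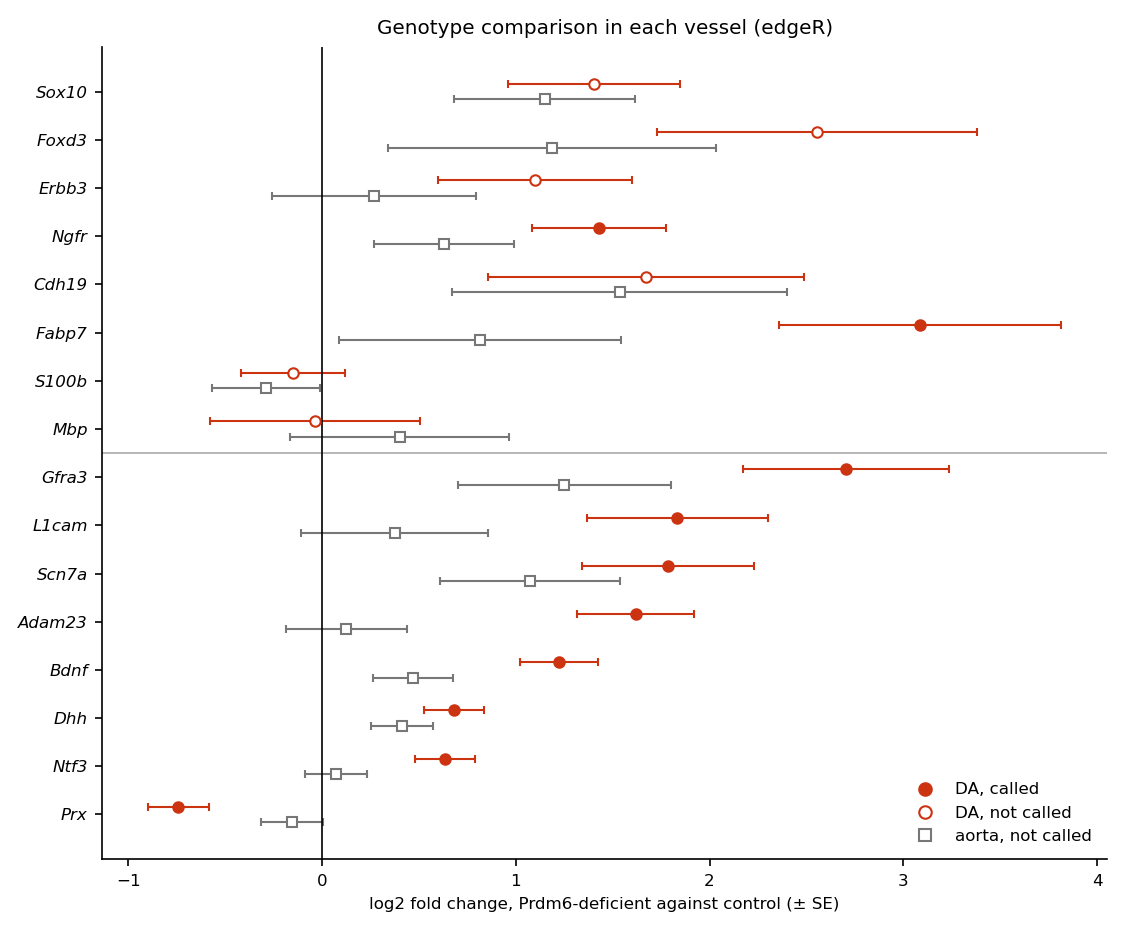
Log2 fold change of Prdm6-deficient against control libraries with its SE (x axis) in the DA (circles) and the aorta (squares) for the 8 genes, above the line, and for the 8 other Schwann cell and peripheral glial genes called in the DA; filled symbols were called. In the DA Fabp7 and Ngfr are filled above the line, at 3.09 and 1.43, and no aorta symbol is filled.

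Around these 8 genes a wider list of 47 Schwann cell and peripheral glial genes was read in the same way, of which 41 could be tested. In the Prdm6-deficient DA 7 were called higher and 1 lower, where 2.61% of all tested genes were called higher and 2.82% lower, with a median log2 fold change of 0.60 over the 41. The genes called higher were genes of precursors and immature Schwann cells (Gfra3, L1cam and Dhh), neurotrophins (Bdnf and Ntf3), and Scn7a and Adam23. Within groups the levels of Bdnf, Ntf3 and Dhh did not rise with those of the 8 genes, as given below. The gene called lower was Prx, which encodes periaxin of the myelin sheath. By role, 3 of 8 tested precursor and immature genes and 2 of 4 neurotrophin signalling genes were called higher, and among 10 tested myelin genes 1 was called, lower. With DESeq2 11 of the 41 genes and 1115 of all tested genes were called in this comparison, and with limma-voom 14 and 972. The count of 8 in both directions was 5 without Prdm6-deficient DA replicate 1, 6 or 7 or control DA replicate 2. It was 11 without control DA replicate 7, 5 without the Cre-carrying control embryo and 4 with the 2 DA groups alone. It was 3 without the libraries made from 2 embryos, and 1 and 0 within the 2 runs of animal numbers. Over all tested genes 894 were called in the main fit. In these fits, in the order given, 789, 784, 814, 948, 818, 919, 611, 650, 61 and 147 were called.

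Gfra3, the artemin receptor of immature Schwann cells and some sensory and autonomic neurons, stood at 10.5, 5.34, 8.48, 10.1 and 13.1 CPM in Prdm6-deficient DA replicates 1, 2, 5, 6 and 7 against 0 to 2.32 in the controls, with a median of 1.62 (log2 fold change 2.71 ± 0.53, edgeR adjusted p = 0.000788). Its groups did not overlap, and it was called in each of the 23 fits that left out 1 library, as were Adam23, Bdnf and Prx. Within the 2 runs of animal numbers Gfra3 (adjusted p = 0.15 and 0.0765) and Adam23 (0.177 and 0.157) were not called. L1cam, an adhesion molecule of axons and nonmyelinating Schwann cells, stood at 3.98 to 9.23 CPM against 0.464 to 5.25, the upper control value again being replicate 7 (log2 fold change 1.83 ± 0.47, edgeR adjusted p = 0.0084). Its call held in 3 of the 23 fits that left out 1 library, among them the fit without control DA replicate 7 (2.39, adjusted p = 0.000322), and the adjusted p rose to 0.0299 without Prdm6-deficient DA replicate 1. It was also lost without the libraries made from 2 embryos (0.0361), without the Cre-carrying embryo (0.0215), with the run covariate (0.0223), with the 2 DA groups alone (0.0512), with no filter (0.0135) and within both runs (0.05 and 0.674). Scn7a, a sodium channel of nonmyelinating Schwann cells, stood at 5.59 to 16.2 CPM against 1.001 to 6.13 (log2 fold change 1.79 ± 0.44, edgeR adjusted p = 0.00719). Control DA replicate 1 lay above Prdm6-deficient replicate 5 for Scn7a, and 9 of the 23 fits lost its call: those without Prdm6-deficient DA replicate 1 (0.0354), 2 (0.0118), 6 (0.0136) or 7 (0.0133) and without control DA replicate 2 (0.0121), 3 (0.0148), 4 (0.0142), 5 (0.0159) or 6 (0.0142). The Scn7a call was also lost without the libraries made from 2 embryos (0.0763), without the Cre-carrying embryo (0.0146), with the run covariate (0.0155), with the 2 DA groups alone (0.0256) and within both runs (0.142 and 0.408). Adam23, a receptor for LGI proteins, stood at 14.0 to 18.2 CPM against 1.67 to 9.25 (1.62 ± 0.30, edgeR adjusted p = 0.000405), with no overlap.

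Among secreted signals, Bdnf stood at 53.3, 33.1, 52.2, 47.4 and 34.1 CPM in Prdm6-deficient DA replicates 1, 2, 5, 6 and 7 against 12.1 to 31.6 in the control DA, with a median of 16.2 (log2 fold change 1.22 ± 0.20, edgeR adjusted p = 8.84e-05). Ntf3 stood at 27.6 to 36.6 CPM against 14.3 to 27.03 (0.63 ± 0.15, edgeR adjusted p = 0.00594). Dhh, the hedgehog ligand by which Schwann cells organise the nerve sheath and which endothelium also makes, stood at 43.7 to 72.0 CPM against 19.2 to 39.4 (0.68 ± 0.15, edgeR adjusted p = 0.00303). In these 3 genes each Prdm6-deficient DA library was above each control DA library. The Dhh call was lost without Prdm6-deficient DA replicate 6 (adjusted p = 0.0219), without the libraries made from 2 embryos (0.0112), with the replicate block (0.0115) and with the 2 DA groups alone (0.0182). The Ntf3 call was lost without Prdm6-deficient DA replicate 1 (0.0215), 2 (0.0116), 5 (0.0101) or 7 (0.0196) or control DA replicate 1 (0.013), 2 (0.014) or 7 (0.0116), and also without the libraries made from 2 embryos (0.0502), without the Cre-carrying embryo (0.0169), with the replicate block (0.0137) and with the 2 DA groups alone (0.0171). Within the second run of animal numbers none of the 3 was called, at adjusted p-values of 0.392 for Bdnf, 0.307 for Dhh and 0.168 for Ntf3, and within the first Dhh (0.186) and Ntf3 (0.408) were not. Prx stood at 17.8 to 27.3 CPM in the Prdm6-deficient DA and 24.97 to 53.3 in the controls (log2 fold change -0.74 ± 0.16, edgeR adjusted p = 0.00169), with Prdm6-deficient replicate 5 reaching into the control range. The Prx call was lost without the libraries made from 2 embryos (0.0259), with the 2 DA groups alone (0.0151) and within both runs (0.427 and 0.113).

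Without control DA replicate 7, in the wider list 10 of 41 genes were called higher and 1 lower, and the median log2 fold change over the 41 was 1.01. Among the genes then called higher were Mal, a proteolipid of myelin membranes (2.77 ± 0.61, edgeR adjusted p = 0.00315), and Cadm4, an adhesion molecule by which Schwann cells hold to axons (2.26 ± 0.42, edgeR adjusted p = 0.000439), both named after their values were seen. Ntf3 was no longer called (adjusted p = 0.0116).

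A pair of genes of the myelin programme, chosen after their values were seen, were at or near 0 counts in the Prdm6-deficient DA. Egr2, the transcription factor that starts myelination, had 0 counts in all 5 Prdm6-deficient DA libraries and 0 to 46 counts in the controls, where 3 of 7 libraries also had 0, and it was not called (edgeR adjusted p = 0.0227). Cldn19, a tight junction protein of Schwann cells, had 0 to 2 counts in the Prdm6-deficient DA against 9 to 27 in 6 control DA libraries and 146 in replicate 7, and it was not called either (edgeR adjusted p = 0.0122). Without control DA replicate 7 the adjusted p was 0.0369 for Cldn19 and 0.0407 for Egr2. Cldn19 was called without Prdm6-deficient aorta replicate 3 (0.00446), which held 21 counts of it, and DESeq2 called both genes (0.000606 for Cldn19, 0.00366 for Egr2). In the control aorta Cldn19 had 0 to 3 counts.

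**Figure D3:**
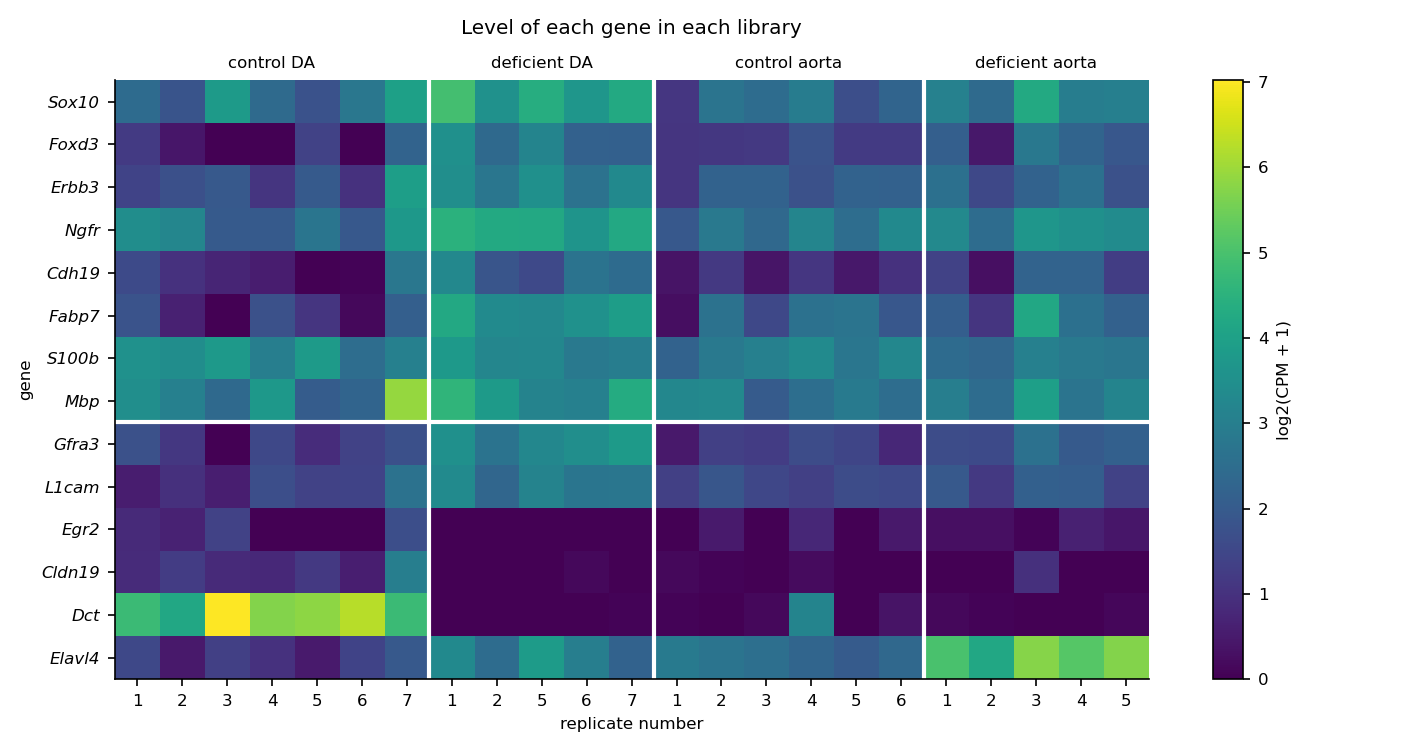
Level of each gene (y axis) in each library (x axis, by replicate number within the 4 groups) as log2(CPM + 1) in colour, with the 8 genes above the line and 6 other genes below it. Control DA replicate 7 stands out for Mbp, at 59.5 CPM, and Dct is high in the control DA, at 17.6 to 129 CPM, with 0 or 1 count in the Prdm6-deficient DA.

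In the ascending aorta most estimates were again positive, and no call was made among the same genes. By edgeR 0 of the 8 genes were called between Prdm6-deficient and control aorta, where 2.45% of all tested genes were called, and 1 of 8, Sox10, had an unadjusted p below 0.05, as did 2304 of all 16463 tested genes, 14.0%. DESeq2 and limma-voom also called 0. The median log2 fold change was 0.72 over the 8 genes and 0.00 over all tested genes, and 7 of 8 estimates were positive. Of the 41 other Schwann cell and glial genes edgeR, DESeq2 and limma-voom each called 0. By edgeR 7 had an unadjusted p below 0.05, a share close to that of all tested genes, and the median was 0.34. With the 2 aorta groups fitted alone 1 of the other glial genes was called, and 702 of all tested genes against 404 in the main fit.

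Sox10 stood at 7.47, 4.35, 18.3, 6.89 and 7.17 CPM in Prdm6-deficient aorta replicates 1 to 5 and at 1.16 to 6.70 in the control aorta with a median of 4.18 (log2 fold change 1.15 ± 0.47, edgeR adjusted p = 0.215). Fabp7 stood at 3.29, 1.10, 17.4, 4.98 and 3.56 CPM in the same libraries against 0.202 to 5.48, with a median of 3.95 (0.81 ± 0.73, adjusted p = 0.77). Replicate 3 was the highest Prdm6-deficient aorta library for both, and without it the Fabp7 estimate was -0.09. Ngfr stood at 8.90, 4.54, 11.9, 10.5 and 9.56 CPM against 2.83 to 9.11, with a median of 5.46 (0.63 ± 0.36, adjusted p = 0.504), the groups overlapping. Foxd3 ran from 0.367 to 6.05 CPM against 1.11 to 2.46, and Cdh19 from 0.229 to 3.74 against 0.303 to 1.25, each with 4 of 5 Prdm6-deficient libraries above every control. Erbb3, S100b and Mbp had log2 fold changes of 0.27, -0.29 and 0.40, with overlapping groups.

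Whether the genotype effect differed between the vessels was tested directly, as the effect in the DA minus the effect in the aorta. By edgeR 0 of the 8 genes passed an adjusted p of 0.01, where 2.65% of all tested genes passed, 1 had an unadjusted p below 0.05, as did 15.9% of all tested genes, and DESeq2 and limma-voom also gave 0. That 1 gene was Fabp7, with a difference of 2.27 ± 1.03 on the log2 scale (edgeR adjusted p = 0.263). For Ngfr the difference was 0.80 ± 0.50 (adjusted p = 0.498) and for Sox10 0.25 ± 0.65 (adjusted p = 0.918). The calls in the DA and their absence in the aorta are therefore not shown to differ between the vessels. Of the 41 other genes 0 passed with edgeR, 9 had an unadjusted p below 0.05, and DESeq2 and limma-voom each gave 1.

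Comparing the vessels within a genotype, edgeR called 0 of the 8 genes between control DA and control aorta, where 5.36% of all tested genes were called. Mbp was the 1 gene with an unadjusted p below 0.05, as had 21.6% of all tested genes, at a log2 fold change of 1.26 ± 0.53 (edgeR adjusted p = 0.147), which was 0.18 without control DA replicate 7. Fabp7 pointed the other way, with 0 to 3.32 CPM in the control DA and 0.202 to 5.48 in the control aorta (-1.28 ± 0.69, adjusted p = 0.3). Of the 41 other genes Ncam1, a neural cell adhesion molecule that smooth muscle can also express, was called higher in the control DA (0.64, adjusted p = 0.000141), and Bdnf (-0.82, adjusted p = 0.00407) and Ntf3 (-0.65, adjusted p = 0.00285) lower, so that 3 of 41 were called. The Bdnf call was lost without control aorta replicate 1 (0.0113), 2 (0.0142) or 3 (0.0103) or control DA replicate 2 (0.0102), 3 (0.011), 5 (0.0104) or 7 (0.0111), and the Ntf3 call without control aorta replicate 1 (0.0133) or 5 (0.0103). With the animal as a block, since embryos gave both vessels, Ntf3 was at -0.72 and no longer called (0.0101). Both calls were also lost without the Cre-carrying embryo (0.0231 for Bdnf, 0.0174 for Ntf3), with the 2 groups alone (0.0125 and 0.0121) and within the second run of animal numbers (0.109 and 0.0393).

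Between Prdm6-deficient DA and Prdm6-deficient aorta edgeR also called 0 of the 8 genes, where 0.267% of all tested genes were called, although all 8 estimates were positive, with a median log2 fold change of 0.97 against 0.00 over all tested genes. Sox10, Erbb3, Ngfr and S100b had an unadjusted p below 0.05, as did 1654 of the 16463 tested genes. Erbb3 stood at 5.23 to 10.5 CPM in the DA and 1.88 to 5.03 in the aorta (1.18 ± 0.55, edgeR adjusted p = 0.47). DESeq2 and limma-voom called 0 of the 8 in both comparisons between vessels. Some Prdm6-deficient embryos also gave both vessels. With the animal as a block 0 of the 8 were called here and 11 of all tested genes, against 44 in the main fit. Of the 41 other genes 0 were called here by edgeR, DESeq2 or limma-voom, and 10 had an unadjusted p below 0.05. The 4 comparisons share libraries, so their values stand side by side and were not correlated.

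Set in order of CPM per kilobase of exon, S100b led in the control DA at 6.35 ± 2.15 (SD, n = 7), ahead of Sox10 at 2.23 ± 1.66, Ngfr at 1.86 ± 1.12, Mbp at 1.69 ± 2.38 and Fabp7 at 1.13 ± 1.04, with Erbb3, Foxd3 and Cdh19 below 1. Without control DA replicate 7 Mbp was at 0.806 ± 0.443 CPM per kilobase (SD, n = 6), below Fabp7 at 0.878 ± 0.867, a gap smaller than either SD. In the Prdm6-deficient DA Fabp7 led at 9.69 ± 3.13 (SD, n = 5), followed by Sox10 at 5.92 ± 2.46, S100b at 5.74 ± 1.72, Ngfr at 5.05 ± 1.08 and Foxd3 at 2.55 ± 1.34. The gap to the next gene was wider than the larger of their SDs for S100b in the control DA and for Fabp7 and Ngfr in the Prdm6-deficient DA, but no neighbours were free of overlap. In the control aorta the order began with S100b at 4.55 ± 1.37 (SD, n = 6) and Fabp7 at 2.76 ± 1.74, and in the Prdm6-deficient aorta with Fabp7 at 4.85 ± 5.19 (SD, n = 5) and S100b at 3.73 ± 0.89. Cdh19 was last in all 4 groups. Of the wider list Pmp22, Ncam1, Ntf3 and Gap43 had the highest mean levels per kilobase, 90.1, 17.7, 17.6 and 13.2, and of these 4 Ntf3 alone was called in the DA.

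The 8 genes summed to 134, 72.2, 83.2, 61.5 and 93.0 CPM in Prdm6-deficient DA replicates 1, 2, 5, 6 and 7, and to 18.4 to 121 in the control DA with a median of 32.3, the upper value being replicate 7 and the next 42.5. The genes whose levels most resembled theirs within groups were found by Pearson correlation with the mean standardised deviation of the 8 genes from their group means, over the 23 libraries and with no test. Among the 10 highest were Marcks, Zswim4, Csrnp3, Cyp11a1, Sostdc1, Nrp2, Metrn, Cnp and Plekha4, with r from 0.841 for Marcks to 0.750 for Plekha4. Of these Cnp and Sostdc1 were on the wider glial list. Among the genes of that list called higher in the DA, r was positive for Scn7a (0.63), Adam23 (0.59), L1cam (0.47) and Gfra3 (0.40). It was negative for Dhh (-0.07), Ntf3 (-0.35) and Bdnf (-0.52), whose levels thus did not follow the 8 genes within groups. The libraries share dissection and depth, and control DA replicate 7, at 1.91, had the highest mean deviation of the 23.

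**Figure D4:**
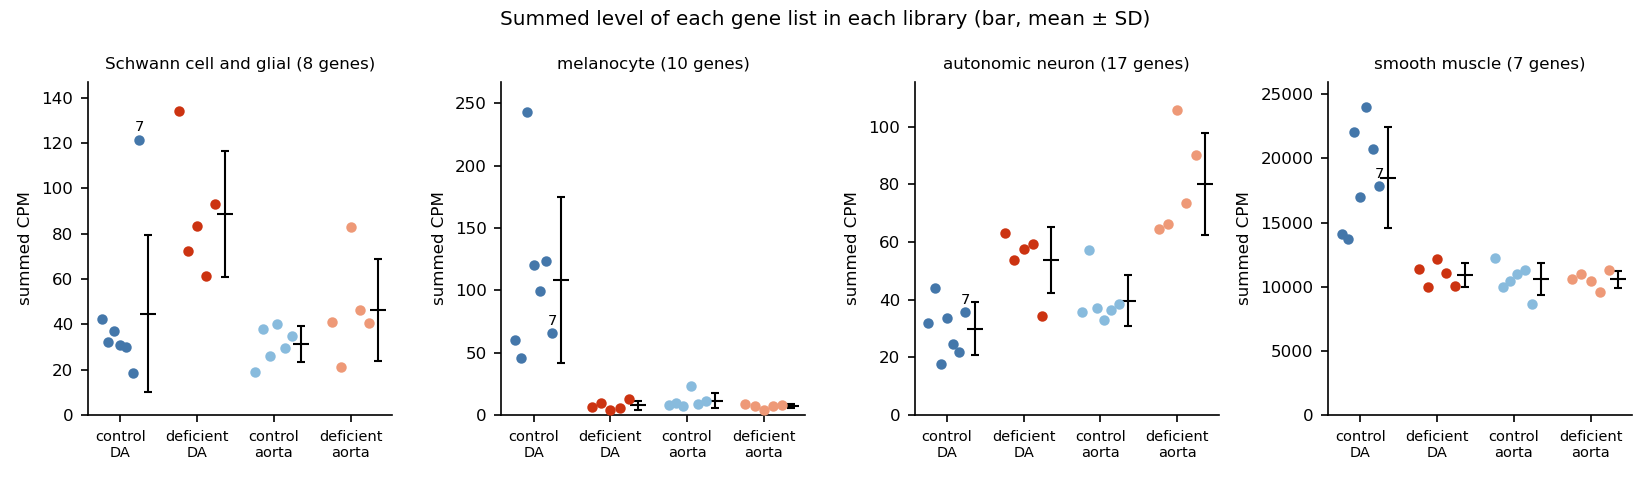
Summed level of 4 gene lists (y axis, CPM, each from 0) in every library of the 4 groups (x axis), with points for libraries, and the mean and SD as a bar; control DA replicate 7 is numbered. In the DA the glial sum is 61.5 to 134 CPM in Prdm6-deficient libraries and 18.4 to 121 in controls, while the melanocyte and smooth muscle sums are lower in every Prdm6-deficient library than in any control.

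Markers of neighbouring cell types moved in the same comparison, and their part in the glial results was not tested. Of 10 melanocyte genes 8 were tested and 4, Dct, Tyrp1, Pmel and Tyr, were called lower in the Prdm6-deficient DA. Their list summed to 6.55, 9.60, 4.12, 5.52 and 13.2 CPM in Prdm6-deficient DA replicates 1, 2, 5, 6 and 7 and to 45.9 to 243 in the control DA with a median of 99.4. Dct, its most abundant gene, was at least 292-fold lower against the floor of 3 counts, and Oca2 was at 3 counts or fewer in every library. Sox10, which melanocytes share with glia, had a positive estimate in libraries whose Dct was at 0 or 1 count.

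Autonomic neuron genes had positive estimates in 10 of 11 tested genes in the DA, with 1, the RNA-binding protein gene Elavl4, called higher (log2 fold change 2.43 ± 0.38, edgeR adjusted p = 5.21e-05). Elavl4 was also called higher in the aorta (3.01 ± 0.39, adjusted p = 6.59e-06). The 17 genes summed to 63.2, 53.8, 57.7, 59.3 and 34.2 CPM in Prdm6-deficient DA replicates 1, 2, 5, 6 and 7 against 17.6 to 44.2 in the control DA with a median of 31.9, so that replicate 7 alone of the Prdm6-deficient libraries fell in the control range. Stmn2, the most abundant of them, stood at 9.52 to 29.8 CPM against 5.06 to 23.3 and was not called, and 0 of the 17 were at 3 counts or fewer in every library. Markers of glia of the central nervous system were low. The 6 oligodendrocyte and astrocyte genes summed to 6.98, 4.998, 1.33, 2.18 and 3.29 CPM in Prdm6-deficient DA replicates 1, 2, 5, 6 and 7 and to 1.17 to 2.42 in the control DA with a median of 1.47. Of these genes 2 could be tested, both with positive estimates and an unadjusted p below 0.05 in the DA, and 0 were called by edgeR, DESeq2 or limma-voom. Olig2 and Opalin were at 3 counts or fewer in every library, and Mobp was the most abundant.

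Smooth muscle genes were called lower in 6 of 7 cases in the Prdm6-deficient DA, led by Myh11 (-1.90), Cnn1 (-1.65), Mylk (-0.99) and Smtn (-0.79), and the list, with Acta2 its most abundant gene, summed to 9943 to 12132 CPM against 13698 to 23996. Of 5 tested adipocyte genes Adipoq, Plin1 and Pparg were called lower, and the list summed to 69.2 to 201 CPM against 30.5 to 245, mostly Fabp4. Of 6 tested cartilage genes Acan, the most abundant, and Hapln1 were called higher and Sox9 lower, with sums of 267 to 328 against 103 to 195 CPM and Matn1 at 3 counts or fewer in every library. Both adipocytes and cartilage can make S100b. Of 6 endothelial (most abundant Pecam1), 7 macrophage (C1qa), 7 cardiomyocyte (Tnnt2) and 4 tested lymphocyte genes (Lck), edgeR called 0 in the DA, with 2, 0, 2 and 1 at an unadjusted p below 0.05, while DESeq2 called 0 of them and limma-voom 1, the cardiomyocyte gene Ryr2. In the aorta Emcn, Tek and Tie1 of the endothelial list and Mylk and Hapln1 were called higher and Sox9 lower. All 7 macrophage genes had negative estimates there, with an unadjusted p below 0.05 and a median log2 fold change of -1.18, of which edgeR called 0, DESeq2 3 and limma-voom 1, and the list summed to 74.7 to 107 CPM in the Prdm6-deficient aorta against 130 to 239 in the control aorta. The autonomic neuron genes summed to 64.6 to 106 CPM in the Prdm6-deficient aorta against 32.8 to 57.2. Within these sums Elavl4 alone stood at 17.5 to 53.2 CPM against 3.01 to 6.41. Over the 11 tested autonomic neuron genes the median log2 fold change in the aorta was 0.24. Of these, 2 had an edgeR unadjusted p below 0.05. The part of these lists in the aorta values of the 8 genes was not tested.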

How the data were processed

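Low-input RNA-Seq libraries were quality filtered, cleared of adapters and aligned to mm10 with STAR and a GENCODE annotation by the authors, who deposited the expected_counts (estimated counts per gene) of RSEM, run with default settings and not scaled for library size or length. The versions of STAR and RSEM were not stated. Here they were rounded. The members and lists were chosen with earlier results of these data known. The edgeR (4.0.16) quasi-likelihood test, with filterByExpr and TMM, was fitted to 4 group means in R 4.3.3. A gene was called at an adjusted p below 0.01 and an absolute log2 fold change above 0.5. Alternatives were DESeq2 (1.42.0), limma-voom (limma 3.58.1) with the animal as a random effect, other scaling, filter and blocks, and libraries left out. Levels are CPM on TMM-scaled totals, per kilobase of GENCODE M21 exons where genes are compared. Genes named are the members, the other glial genes called in the DA, and the leading genes of each list by level, call or likeness. The code was tested on simulated data.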

Additional observations from a re-analysis of the deposited data

Results flagged for a closer look

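In 9 of 64 groups examined, 4 groups for each of 16 genes, 1 library lay far from the others of its group. Chance gives about 1 in 20 for independent, normally distributed values. The genes share libraries, so these groups were not independent, and no conclusion is drawn from the number flagged. Control DA replicate 7 was the outlying library 5 times, all on the high side. It held 3.71 CPM of Foxd3, 14.4 CPM of Erbb3, 5.88 CPM of Cdh19, 59.5 CPM of Mbp and 5.25 CPM of L1cam. Prdm6-deficient aorta replicate 3 was high for Sox10, at 18.3 CPM, and for Fabp7, at 17.4 CPM. Control aorta replicate 4 was high for Foxd3, at 2.46 CPM, and was also the control aorta library with the most Dct, 7.91 CPM. Prdm6-deficient DA replicate 5 was high for Prx, at 27.3 CPM. The causes were not tested.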

How the results depend on the processing

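Of the 8 genes, 2 were called in the Prdm6-deficient DA. This count was 1 with only the 2 groups compared, 1 with the run of animal numbers as a covariate and 1 without the Cre-carrying control embryo. It was 3 with DESeq2, 5 with limma-voom and 0 without the libraries made from 2 embryos. It was also 0 within either run of animal numbers, a split chosen after the data were seen. Over all tested genes 894 were called in the main fit. In these fits, in the order given, 611, 816, 919, 1115, 972, 650, 61 and 147 were called. Leaving out 1 library gave 0 to 4 of the 8 genes and 784 to 948 of all tested genes. In the other 4 comparisons 0 of the 8 were called in every alternative run. The signs of some estimates that were not called turned as follows, among them 0.98 for Cdh19 between control vessels and 0.81 for Fabp7 in the aorta, and the cause was not tested. For Mbp in the DA the value was 0.50 with the replicate block, 0.20 with the run covariate, 0.53 with limma-voom, 1.13 within the first run, and -0.29 to 1.04 on leaving out 1 library. In the aorta, within the second run, Fabp7 was at -0.51 and Mbp at -0.0262, and Fabp7 ran from -0.0937 to 1.08 on leaving out 1 library. Between control vessels Erbb3 was at -0.45 with the replicate block, -0.21 with the animal block, -0.11 with limma-voom and -0.57 to 0.51 on leaving out 1 library. There Ngfr was at -0.0948 with the replicate block, -0.0197 without the Cre-carrying embryo and -0.11 to 0.30 on leaving out 1 library, and Cdh19 was at -0.14 with the replicate block, -0.23 with limma-voom and -0.0504 to 1.20 on leaving out 1 library. Between Prdm6-deficient vessels Prdm6 was at -0.0535 within the second run. For the difference between the vessels Mbp was at 0.15 with the replicate block, 0.15 with limma-voom and -0.69 to 0.64 on leaving out 1 library, Cdh19 at -0.0930 without the libraries made from 2 embryos and -0.22 to 1.16 on leaving out 1 library, and S100b at -0.11 and -0.0486 to 0.27 in the same 2 settings. Foxd3, Cdh19 and Fabp7 had control DA libraries at 0 counts, where a level below the floor of 3 counts cannot be told from 0.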
